A study of Mus musculus with 6 samples.

Results

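Corticotropin releasing hormone and its partners were read in spinal cord from a mouse model of pancreatic cancer growing in a nerve. The genes were Crh, which encodes the peptide hormone itself, Crhr1, which encodes its main receptor, and Crhbp, which encodes its binding protein. They are 3 of the 18193 genes that the array's annotation names by 1 symbol, and 4 probe sets read them. The set was chosen on the measured values of Crh, because its level lay above PBS on all 4 arrays of animals that carried tumour cells. For that reason the levels of Crh are given as a description with no test, and those of Crhr1 and Crhbp are tested.

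All animals were labelled as male SCID mice, a strain that lacks functional T and B lymphocytes, sampled at an age of 15 weeks, 6 weeks after injection. N-inv mice had received cells of the human pancreatic cancer line Capan-1 in the left sciatic nerve. SC mice carried that line under the skin, and PBS mice were the control without tumour cells. RNA came from the cord at the first lumbar level (L1), with 2 arrays in each group. The labels number each array separately but do not say in words that replicates are separate animals, so p-values measure only the spread between these arrays, which for the N-inv and PBS pairs may be technical.

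Corticotropin releasing hormone is best known as the hypothalamic peptide that makes the pituitary release corticotropin and so starts the glucocorticoid stress response. It also acts as a neuropeptide outside the hypothalamus, and fibres that contain it descend from Barrington's nucleus in the pons to autonomic neurons of the lumbosacral cord. Its receptor CRHR1 couples mainly to the stimulatory G protein and cyclic AMP. The secreted binding protein CRHBP holds the peptide and its relative urocortin and keeps them from the receptors.

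Values are the deposited probe set intensities, brought here to a common array median of 255.8. Differences are on the scale of log2(intensity + 25.6), where the added constant is a 10th of that median, so that differences of dim genes are understated. Of 45037 probe sets, the 27022 with a mean above the 40th percentile, an intensity of 155.2, were tested with limma. All 4 member probe sets passed that filter. Neuron markers were above it for 6 of 6 genes, and markers of sensory ganglion neurons for 0 of 5, among them Scn10a between 4.70 and 73.7 on all arrays. P2rx3 of the same list was brighter, between 95.7 and 207.8. It exceeded the filter intensity on SC replicate 1 (207.8) and PBS replicate 1 (169.7). SC replicate 2 went against its label of a male mouse, with the female-specific RNA Xist at 13042 on that array and between 138.3 and 228.1 on the others. The Y-linked Eif2s3y was at 3147 on that array and between 1342 and 2647 on the others, so the array carried both transcripts. Where leaving out SC replicate 2 moved a difference of Crh or Crhbp, or a list median named below, by much, the value without it stands beside it.

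The RefSeq promoter table (250 bases before to 50 bases after the start site, build GRCm38.p6) held 2 of the 3 members, and their promoters are shown. The highest array was 1.88 times the lowest for Crhbp and 1.23 times for the brighter Crhr1 probe set, described below, but 6.08 times for the dimmer one. The part of the promoters in this was not tested. The search covered both strands for the cyclic AMP response element TGACGTCA, for TGACG, its half-site and thus contained in it, and for the AP-1 site TGAGTCA. Capitals mark a match. Crhr1 is shown on the plus strand at chr11:104132531-104132830 and Crhbp on the minus strand at chr13:95444782-95445081.
Crhr1: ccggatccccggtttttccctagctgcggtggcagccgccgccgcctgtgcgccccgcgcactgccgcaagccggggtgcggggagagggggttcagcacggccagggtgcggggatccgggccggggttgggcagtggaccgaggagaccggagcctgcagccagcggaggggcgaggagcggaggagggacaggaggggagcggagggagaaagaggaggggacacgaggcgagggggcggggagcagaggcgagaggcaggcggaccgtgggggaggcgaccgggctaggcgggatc
Crhbp: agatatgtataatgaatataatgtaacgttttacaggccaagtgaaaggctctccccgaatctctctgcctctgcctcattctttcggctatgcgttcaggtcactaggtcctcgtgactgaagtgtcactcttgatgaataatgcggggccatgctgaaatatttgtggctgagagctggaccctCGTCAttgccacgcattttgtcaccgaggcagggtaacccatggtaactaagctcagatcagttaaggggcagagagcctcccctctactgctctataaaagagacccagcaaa
The Crhbp window held 1 half-site, read on the opposite strand and starting at position -64 from the start site, and neither of the other letter strings. The Crhr1 window held none of the 3 strings. Among 32851 promoter windows in the table, 20.8% held the half-site, 1.79% the whole element and 5.2% the AP-1 string. G and C made up 75% of the Crhr1 window and 48% of the Crhbp window, against a median of 52.67% over all windows.

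Crh, the ligand, was the member with the widest separation from PBS. Its 1 probe set measured 977.5 and 863.8 in N-inv cord and 1130.1 and 778.3 in SC cord, against 338.5 and 401.6 in PBS cord. The lowest tumour array was thus 1.94 times the highest PBS array, and this gap is what the gene was picked for. The means were 921 ± 80.4 in N-inv, 954.2 ± 248.8 in SC and 370 ± 44.6 in PBS (SD, n = 2 each). The ratio of means was 2.49 for N-inv over PBS and 2.58 for SC over PBS, and the log2 differences were 1.26 and 1.29. Both comparisons rest on the same pair of PBS arrays. Of all probe sets tested, 5.85% had all 4 tumour arrays above both PBS arrays and 5.71% had them below. Without SC replicate 2 the lowest tumour array was the 863.8 of N-inv replicate 2, and the SC log2 difference from PBS was 1.55.

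**Figure D1:**
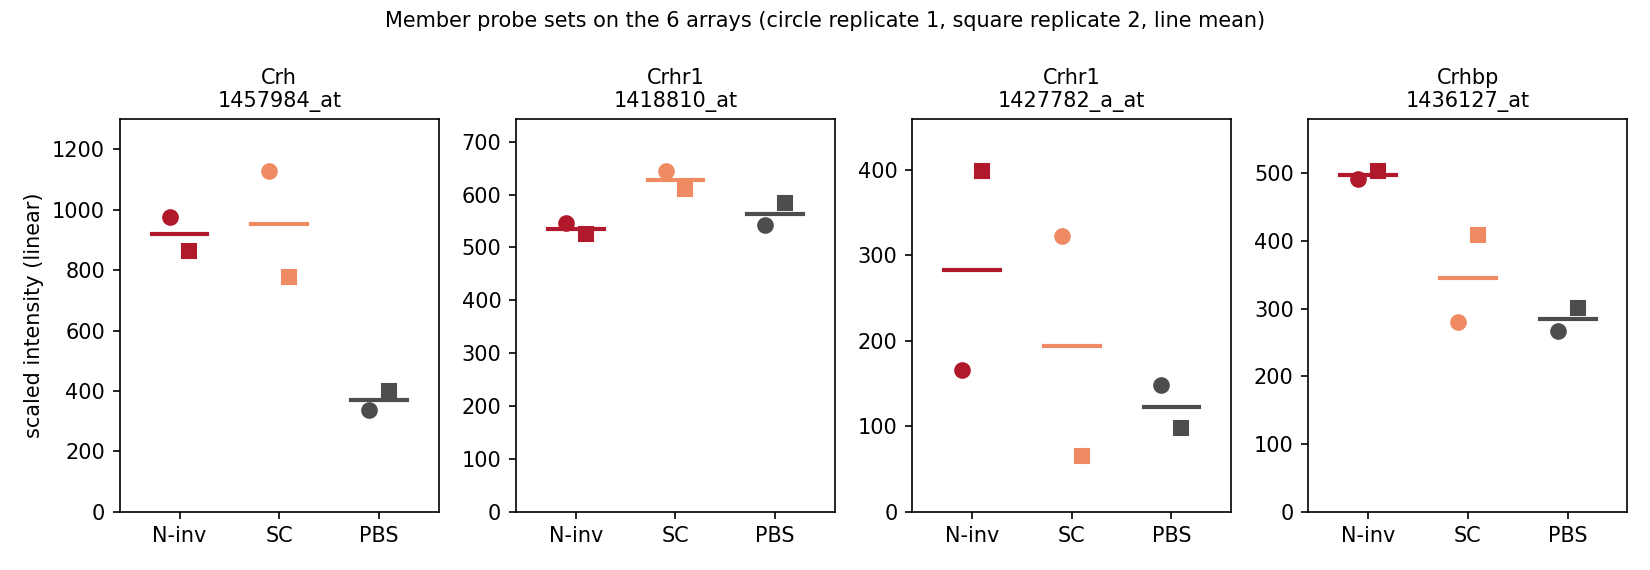
Scaled intensity (linear axis from 0) of the 4 member probe sets in N-inv, SC and PBS cord, with each array as a point and the group mean (n = 2) as a line. Crh lies between 778.3 and 1130.1 on the tumour arrays and at 338.5 and 401.6 on the PBS arrays, while the brighter Crhr1 probe set stays between 525.1 and 645.4 on all 6.

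Between the placements of the tumour cells Crh is also only described, because the gene was picked for high values on these same 4 arrays. N-inv and SC overlapped, since SC replicate 1 gave the highest value of all 6 arrays and SC replicate 2 the lowest of the 4 tumour arrays. The log2 difference of N-inv minus SC was -0.029. With n = 2 arrays a group and scattered SC values, it does not show that both placements gave the same level. The sign turned when single arrays were left out, to 0.23 when SC replicate 1 was left out and 0.058 when N-inv replicate 2 was. The difference was -0.29 without SC replicate 2.

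A sign of RNA quality differed between the same groups as Crh. For Gapdh control probes the 3' to 5' ratio stood at 3.12 and 3.38 in N-inv cord and 3.52 and 3.38 in SC, against 2.82 and 3.02 in PBS. All 4 tumour arrays were above both PBS arrays in this ratio, as they were in Crh. The Actb ratio was 3.32 and 3.42 in N-inv cord and 3.81 and 4.70 in SC, against 3.05 and 3.57 in PBS, so that PBS overlapped with N-inv. The part of RNA quality in the Crh values was not tested. Summed neuron markers were 151778 and 157207 in N-inv cord and 139276 and 161097 in SC, against 146174 and 148424 in PBS, with overlap of all groups. Of 3 endothelial markers 2 were above the filter, and their summed level, for all 3, was 2644 and 4636 in N-inv cord and 2736 and 3725 in SC, against 2276 and 2348 in PBS. All 4 tumour arrays were above PBS in this sum, which was mostly Cldn5, a tight junction gene of vessels. Cldn5 was at 2276 and 4119 in N-inv cord and 2343 and 3121 in SC, against 1998 and 2133 in PBS. The other markers did not separate this way. Cdh5 was at 223.1 on SC replicate 1, against 245.7 and 187.3 in PBS. Pecam1, below the filter, was at 11.2 on N-inv replicate 1, against 32.2 and 27.5 in PBS. The part of endothelial cells in the Crh values was not tested. In bulk cord, more cells that express a gene and more RNA per cell cannot be told apart.

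Crhr1, the receptor, stayed within a narrow range on its brighter probe set. That probe set measured 545.9 and 525.1 in N-inv cord and 645.4 and 610.8 in SC, against 543.1 and 584.4 in PBS. The highest array was 1.23 times the lowest, where for Crh this ratio was 3.34. N-inv lay below SC without overlap, and PBS stood in between and overlapped with N-inv. In the values as deposited and with quantile normalization, both N-inv arrays were below the other 4. The log2 differences were -0.070 ± 0.15 for N-inv minus PBS, 0.15 ± 0.15 for SC minus PBS and -0.22 ± 0.15 for N-inv minus SC (SE), and the adjusted p in limma was 0.99998, 0.865 and 0.72. The 95% intervals ran from -0.44 to 0.29, from -0.22 to 0.51 and from -0.59 to 0.15 in the same order.

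A second probe set of Crhr1 was dim and scattered. It measured 165.4 and 399.3 in N-inv cord and 323.0 and 65.6 in SC, against 148.3 and 98.2 in PBS, and it exceeded the filter intensity on 3 of 6 arrays. Its mean passed the filter through 2 arrays, N-inv replicate 2 and SC replicate 1, and SC replicate 2 was the lowest of all. The log2 difference was 0.96 ± 0.65 for N-inv minus PBS and 0.68 ± 0.65 for N-inv minus SC (SE), with adjusted p of 0.99998 and 0.814 in limma. SC minus PBS was 0.28 ± 0.65 (SE, adjusted p = 0.955 in limma). The probe sets of this gene therefore disagreed in sign for N-inv against either other group, and the mean of both gave 0.44 for N-inv minus PBS and 0.23 for N-inv minus SC.

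Crhbp, the binding protein, was highest in the nerve tumour group. It measured 490.9 and 503.9 in N-inv cord and 280.3 and 408.9 in SC, against 267.7 and 300.8 in PBS. Both N-inv arrays stood above the other 4, while SC replicate 1 lay within the PBS range and SC replicate 2 above it. In the values as deposited SC replicate 1 also exceeded both PBS arrays, at 305.9 against 274.8 and 294.7. Of all probe sets tested, 9.10% had both N-inv arrays above the other 4 and 4.63% had them below. The means were 497 ± 9.22 in N-inv, 345 ± 91.0 in SC and 284 ± 23.4 in PBS (SD, n = 2 each).

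The log2 difference of Crhbp was 0.76 ± 0.21 for N-inv minus PBS (SE), with a 95% interval from 0.26 to 1.26. Its p was 0.00917 before adjustment and its adjusted p was 0.99998 in limma. N-inv minus SC came to 0.52 ± 0.21 (SE), with an interval from 0.023 to 1.02, a p of 0.0428 before adjustment and an adjusted p of 0.548 in limma. For SC minus PBS it was 0.24 ± 0.21 (SE, adjusted p = 0.842 in limma). None of these differences passed the adjusted threshold. The SC arrays decided the size of 2 of them. Without SC replicate 1, N-inv minus SC was 0.27 and SC minus PBS 0.49, and without SC replicate 2 they were 0.77 and -0.017.

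**Figure D2:**
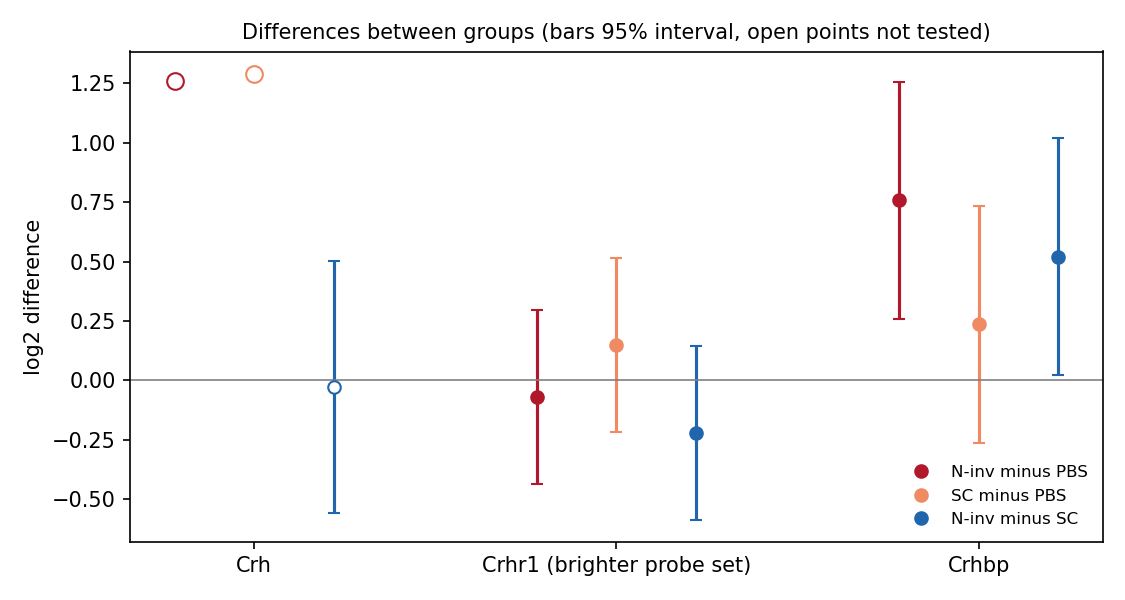
Log2 differences between groups for Crh, the brighter Crhr1 probe set and Crhbp, with 95% intervals from limma (n = 2 arrays a group). Open points are the differences of Crh, which were not tested, at 1.26 and 1.29 from PBS. The bar on the Crh point for N-inv minus SC comes from the same fit and is not a test. The Crhr1 intervals all cross 0, and those of Crhbp for N-inv minus PBS and N-inv minus SC do not, before adjustment over all probe sets.

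No probe set on the array passed the adjusted threshold of 0.05 in any of the 3 comparisons, so 0% of 27022 were called in N-inv minus PBS, in SC minus PBS and in N-inv minus SC. Before adjustment 1089, 2129 and 2406 probe sets had a p under 0.05 in these comparisons in limma, the only tool run. Against this background no probe set of Crhr1 or Crhbp was called, and Crh is not counted because it is only described. By separation of arrays, N-inv stood above SC without overlap for 23.7% of probe sets and below it for 13.3%, so the separation of Crhbp and of the brighter Crhr1 probe set from SC was common on these arrays.

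Ligand and binding protein can also be followed together on each array, as log2 differences from their own PBS means. In N-inv, Crh lay 1.35 and 1.17 above its PBS mean and Crhbp 0.74 and 0.78 above its own. In SC, Crh lay 1.55 and 1.03 above, while Crhbp was at -0.017 and 0.49. The excess of the Crh difference over the Crhbp difference was 0.61 and 0.40 in N-inv cord and 1.57 and 0.54 in SC, against -0.038 and 0.038 in PBS. Crh was picked for lying above PBS on the tumour arrays, so the choice of the gene favours an excess above 0 there. The PBS values mirror each other by construction, as differences from their own mean. The excess was widest on SC replicate 1, which had the highest Crh of all arrays and Crhbp at the level of PBS, and the other SC array lay between the N-inv arrays. Across the 6 arrays the Pearson correlation was 0.54 between Crh and Crhbp, 0.29 between Crh and Crhr1 and -0.48 between Crhbp and Crhr1. These are a description, because the arrays share their groups and Crh was picked on the same arrays.

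**Figure D3:**
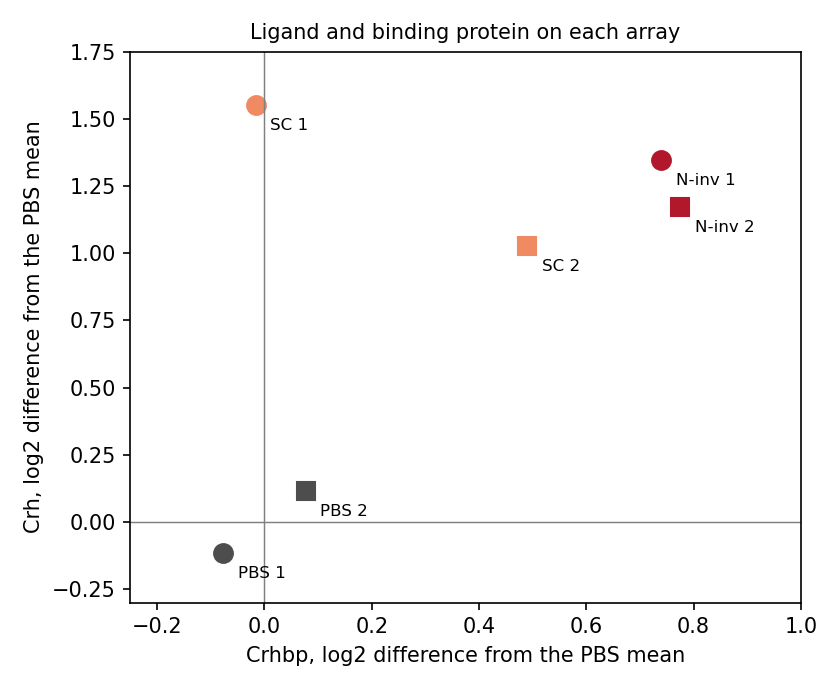
Log2 difference of Crh (vertical axis) and of Crhbp (horizontal axis) from the PBS mean of each gene, with 1 point per array. The N-inv arrays lie high on both axes, SC replicate 1 is high for Crh at 1.55 and near 0 for Crhbp, and the PBS arrays lie near the origin. Crh was picked for lying above PBS on the tumour arrays.

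The other ligands and the second receptor of the family were dim. Ucn, Ucn2 and Ucn3 encode urocortins, which bind CRHR2, and Ucn also CRHR1. Crhr2 encodes the receptor CRHR2. Their 5 probe sets lay below the filter, with 0 arrays above its intensity and a highest value of 125.0. The probe set annotated as Ucn2 measured 57.3 and 118.9 in N-inv cord and 65.2 and 125.0 in SC, against 20.7 and 18.4 in PBS. All 4 tumour arrays were above PBS here too, but the accession behind this probe set belongs to Ucn3 in RefSeq, so its gene is uncertain. Ucn measured 91.7 and 11.1 in N-inv cord and 77.0 and 121.3 in SC, against 9.64 and 30.5 in PBS. N-inv overlapped with PBS in Ucn, and SC did not. Ucn3 stayed between 6.67 and 22.8 on all arrays. The brighter Crhr2 probe set measured 21.0 and 121.6 in N-inv cord and 93.7 and 101.2 in SC, against 73.4 and 95.03 in PBS, with overlap of all groups. Whether such dim signals come from these transcripts was not tested.

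Downstream of the receptor, genes of the stimulatory G protein, adenylyl cyclases, protein kinase A and receptor desensitisation had list medians close to those of all probe sets. Of 25 listed genes 23 were tested and 0 were called in any comparison. That median was 0.051 for N-inv minus PBS, 0.076 for SC minus PBS and 0.0026 for N-inv minus SC, where all probe sets tested had medians of 0.024, -0.023 and 0.048. Without SC replicate 2 the list median was -0.058 for SC minus PBS and 0.11 for N-inv minus SC. For 0 of the 23 genes did all 4 tumour arrays lie on one side of PBS, against 5.85% of all probe sets above and 5.71% below. With quantile normalization 3 lay above and 1 below, and in the values as deposited 4 lay above. The share of all probe sets under those scalings was not computed. Without SC replicate 2, 1 of the 23 lay above PBS and 2 below, where 8.27% and 9.94% of all probe sets lay that way. Grk3, a kinase that desensitises CRHR1, measured 3010.2 and 3315 in N-inv cord against 3653 and 4645 in SC, a log2 difference of -0.38 ± 0.18 (SE, adjusted p = 0.603 in limma). Its N-inv arrays lay below SC without overlap, as for 13.3% of all probe sets, and its PBS arrays measured 2950 and 3152. The Grk3 difference without SC replicate 2 is not given. The cyclase Adcy5 measured 3475 and 3720 in N-inv cord against 2554 and 3323 in SC. Prkar1a, a regulatory subunit of protein kinase A, measured 9424 and 9779 in N-inv cord against 9952 and 13476 in SC.

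Among 15 genes known to control Crh transcription, 12 were tested and 0 were called. Both corticosteroid receptor genes were lower than PBS on all 4 tumour arrays. They were the 2 of 12 genes with that separation, against 5.71% of all probe sets. With quantile normalization Nr3c1 lost it, and Rest, also on this list, gained it. In the values as deposited 3 of 12 had it, with Rest among them. The shares of all probe sets under those scalings were not computed. Nr3c1, the glucocorticoid receptor, which represses Crh in the hypothalamus, measured 4096 and 4096 in N-inv cord and 4063 and 3253 in SC, against 4353 and 4847 in PBS. Nr3c2, the mineralocorticoid receptor, measured 1383 and 1268 in N-inv cord and 1003 and 1151 in SC, against 1537 and 1405 in PBS. The gaps to PBS were small, and no difference of either gene passed the adjusted threshold. The nuclear receptor Nr4a3 measured 330.8 and 437.3 in N-inv cord and 607.2 and 567.7 in SC, against 492.6 and 595.7 in PBS, with the N-inv arrays below all others. Fos, a marker of neuronal activity, measured 6074 and 7729 in N-inv cord and 6082 and 5969 in SC, against 6692 and 6447 in PBS, where N-inv enclosed the other arrays but one.

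The enzymes and granins that process peptide precursors were tested for 9 of 10 genes, and 0 were called. For 2 of the 9, Pcsk1 and Scg2, all 4 tumour arrays lay above PBS, against 5.85% of all probe sets. In the values as deposited this held for 4 of the 9, where the share of all probe sets was not computed. Pcsk1, a convertase that cleaves prohormones, measured 546.0 and 450.8 in N-inv cord and 606.2 and 553.6 in SC, against 413.6 and 357.3 in PBS. The granin Scg2 measured 10943 and 13174 in N-inv cord and 11264 and 15960 in SC, against 8194 and 9784 in PBS. Pcsk1n, an inhibitor of that convertase, had N-inv arrays of 6492 and 6801 against SC arrays of 4953 and 5028. Scg5, a chaperone of a related convertase, measured 17342 and 18599 in N-inv cord against 19751 and 24574 in SC. Pam, which amidates peptides such as the hormone itself, measured 437.8 and 1263 in N-inv cord against 1455 and 1106 in SC. The amidating enzyme thus had 1 low array, N-inv replicate 1, and its groups overlapped.

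Other neuropeptide precursors showed the pattern of Crh for 6 of 16 tested genes, against 5.85% of all probe sets. For 1 of the 16 all 4 tumour arrays lay below PBS, against 5.71%. The list was chosen with earlier results of these data known, so these counts are a description. They read 1 probe set per gene, and the shares cover all probe sets tested. In the values as deposited 7 lay above, where the share of all probe sets was not computed. The 6 were Tac1, Npy, Pnoc, Adcyap1, Cartpt and Vgf, of which Npy and Adcyap1 are named after their values were seen. Without SC replicate 2 there were again 6 genes above PBS and 3 below, where 8.27% and 9.94% of all probe sets lay that way. In limma 0 of 16 were called. The list median was 0.55 for N-inv minus PBS, 0.20 for SC minus PBS and 0.19 for N-inv minus SC, and without SC replicate 2 it was 0.057 for SC minus PBS and 0.45 for N-inv minus SC. Cartpt, the precursor of the CART peptide, measured 1004 and 1574 in N-inv cord and 1183 and 1373 in SC, against 701.6 and 632.9 in PBS. Pnoc, which encodes the precursor of nociceptin, measured 620.1 and 822.1 in N-inv cord and 821.1 and 646.5 in SC, against 379.9 and 436.2 in PBS. In these genes, as in Crh, the N-inv and SC arrays overlapped and both stood above PBS.

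Tac1, the substance P precursor, and Gal, the galanin precursor, differed from Crh in that both N-inv arrays were above SC. Tac1 measured 9153 and 9311 in N-inv cord and 5470.2 and 7114 in SC, against 3379 and 4770.4 in PBS. Gal measured 1802 and 1258 in N-inv cord and 415.9 and 1010.3 in SC, against 583.1 and 532.8 in PBS. Vgf, which encodes a secreted precursor of several peptides, measured 6319 and 6383 in N-inv cord and 3541 and 6468 in SC, against 2744 and 2875 in PBS. Tac2, the neurokinin B precursor, measured 1322 and 1268 in N-inv cord and 890.9 and 937.9 in SC, against 1109 and 1170.1 in PBS. For Tac2 the N-inv arrays lay above PBS and the SC arrays below it.

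**Figure D4:**
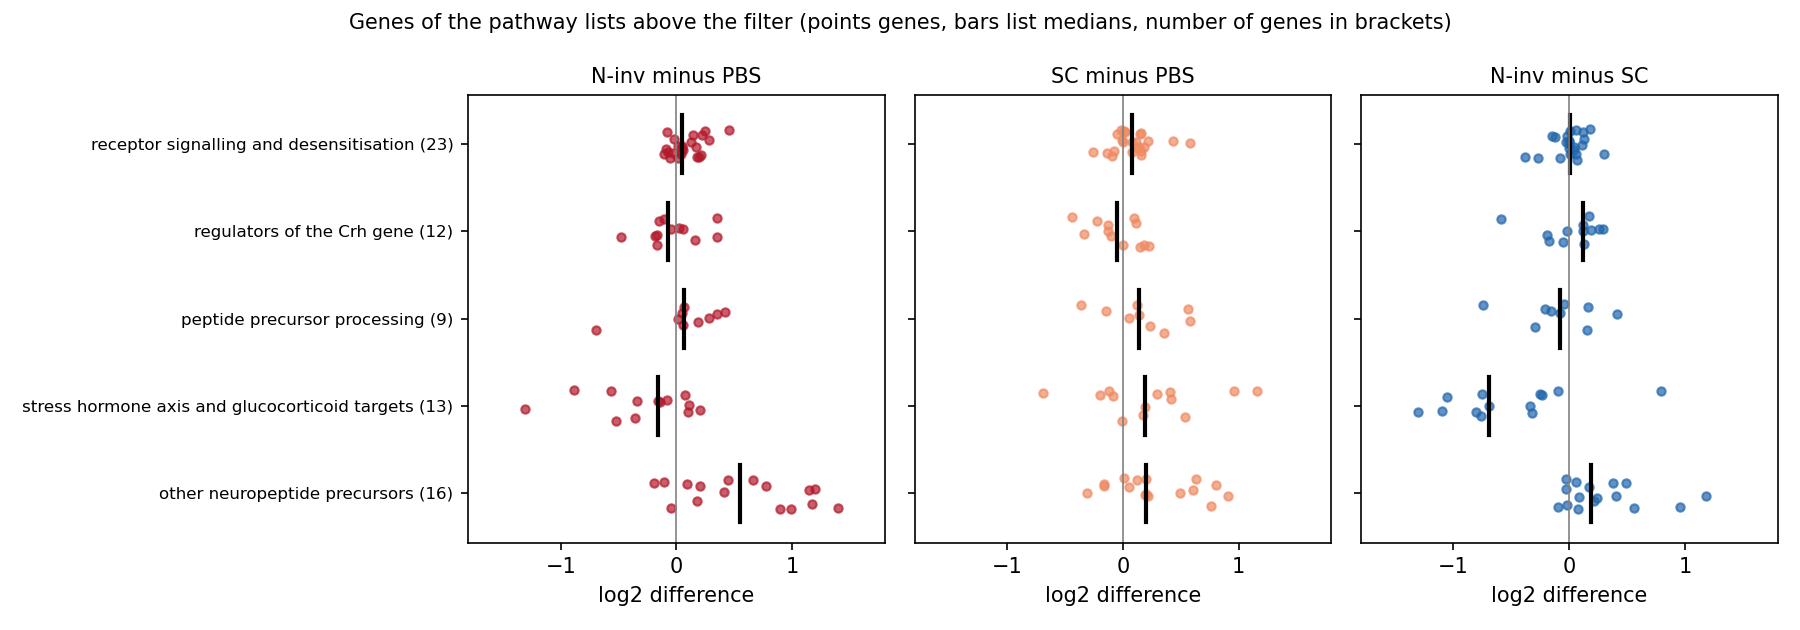
Log2 differences of the tested genes of 5 lists (points) with the list medians (bars) in the 3 comparisons. Neuropeptide precursors have medians of 0.55, 0.20 and 0.19, and the stress hormone and glucocorticoid list has a median of -0.70 for N-inv minus SC.

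The stress hormone axis itself was set beside Crh because the peptide drives it in the pituitary and is held back by glucocorticoids in the hypothalamus. Of 15 listed genes 13 were tested, 0 were called, and the list medians were -0.16 for N-inv minus PBS, 0.19 for SC minus PBS and -0.70 for N-inv minus SC. In the last comparison 12 of 13 genes were lower in N-inv. Without SC replicate 2 that median was -0.075, with 7 of 13 lower, and the median for SC minus PBS was -0.35. Fkbp5, a target that glucocorticoids induce, measured 1312 and 1318 in N-inv cord and 1476 and 5138 in SC, against 1209 and 1238 in PBS, and it was the 1 gene of 13 with all tumour arrays above PBS, against 5.85% of all probe sets. Without SC replicate 2, 1 of the 13 lay above PBS and 4 lay below, where 8.27% and 9.94% of all probe sets lay that way. Sgk1, another target, measured 17648 and 5958 in N-inv cord and 14695 and 43800 in SC, against 23878 and 27196 in PBS. SC replicate 2 gave the highest value of both targets, on the array with the high Xist, and it had the lowest Crh among the tumour arrays. Sult1a1, a sulfotransferase, measured 901.6 and 975.0 in N-inv cord and 1303 and 3200 in SC, against 1009 and 1065 in PBS. Its N-inv mean was 0.417 times the SC mean, and 0.72 times SC replicate 1 alone. Hsd11b1, the enzyme that regenerates active glucocorticoid, went the other way, with 1079 and 925.1 in N-inv cord and 517.7 and 614.2 in SC, against 1012.0 and 849.8 in PBS. Its log2 difference of N-inv minus SC was 0.80 ± 0.18 (SE, adjusted p = 0.449 in limma).

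The genes whose pattern over the 6 arrays was most like that of each member were listed by Pearson correlation of log2 values, as a description among 12626 tested genes. Some high correlations are to be found among so many genes with so few arrays. For Crh the 5 nearest were Gga1, Fbxo17, Rexo5, Ptpn6 and Lrwd1, with correlations from 0.982 to 0.994. Their differences were smaller than that of Crh. Gga1, an adaptor of vesicle sorting, measured 926.3 and 895.5 in N-inv cord and 959.9 and 876.5 in SC, against 755.6 and 756.6 in PBS. Crhr1 was nearest to S1pr2, Tmem106c, Krt1, Plxna2 and Osbpl10, with correlations from 0.970 to 0.986.

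Crhbp was nearest to Osmr, Aspg, Serpina3n, Ntrk3 and Faf2, with correlations from 0.983 to 0.992. Osmr, the receptor of oncostatin M, measured 1622 and 1522 in N-inv cord and 825.0 and 1331 in SC, against 780.6 and 849.6 in PBS. Serpina3n, a protease inhibitor that reactive astrocytes express, measured 3822 and 3369 in N-inv cord and 1249 and 2743 in SC, against 1286 and 1393 in PBS. As with Crhbp, SC replicate 1 lay near PBS for these genes and SC replicate 2 between PBS and N-inv. All 5 astrocyte markers were above the filter, and their summed level was 93236 and 88723 in N-inv cord and 54699 and 80851 in SC, against 65775 and 73053 in PBS. Both N-inv arrays were the highest in that sum and SC replicate 1 was the lowest. The bright genes carry the sum, and only 2 of the 5, Gfap and Aqp4, had both N-inv arrays above the other 4, against 9.10% of all probe sets. Slc1a2 was highest on SC replicate 2, at 40065. Slc1a3 went the other way, with 1753 and 1636 in N-inv cord against 1884 and 2295 in PBS. The summed level of the 5 microglia markers was 25047 and 20846 in N-inv cord and 13041 and 14735 in SC, against 15693 and 16350.2 in PBS. Csf1r carries most of that sum. All 5 microglia markers had both N-inv arrays above the other 4, against 9.10% of all probe sets. The part of these cell types in the Crhbp values was not tested.

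**Figure D5:**
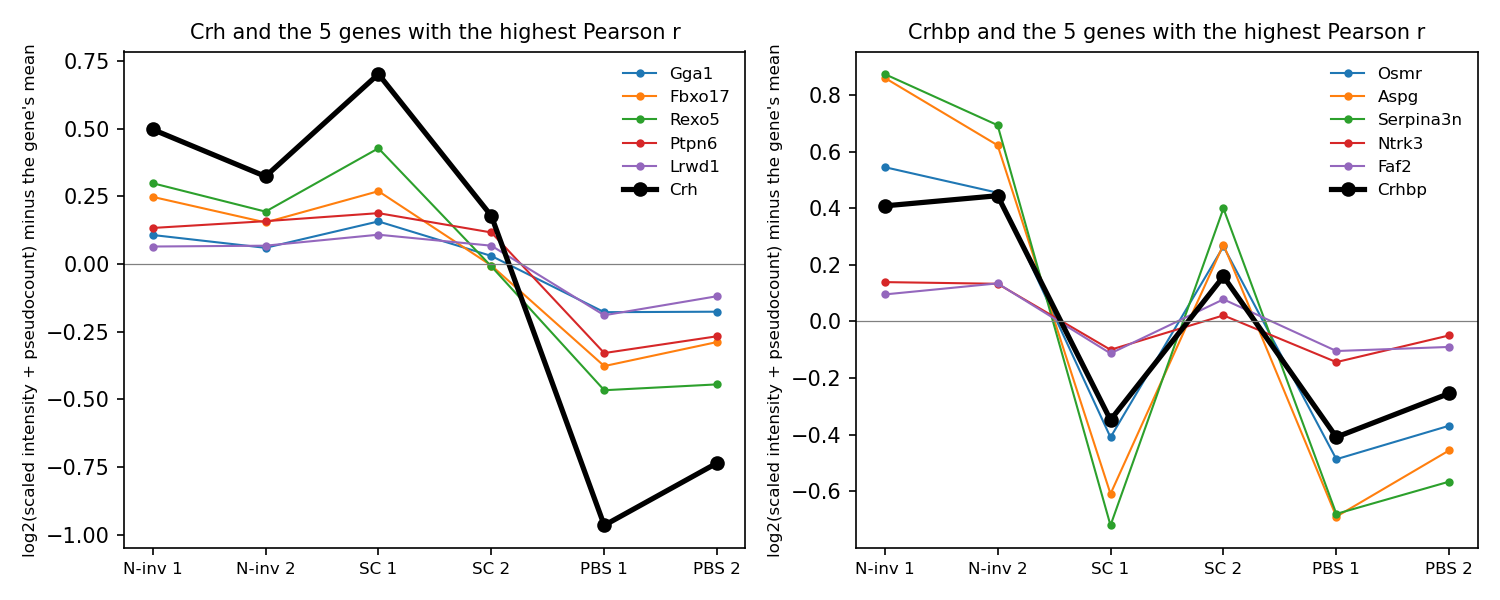
Log2 level of Crh (left panel) and Crhbp (right panel) in black and of the 5 genes with the highest Pearson correlation to each, on the 6 arrays, after subtraction of each gene's mean. Crh and its neighbours are high on the 4 tumour arrays, and Crhbp and its neighbours are high in N-inv, intermediate on SC replicate 2 and low on SC replicate 1 and PBS.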

How the data were processed

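RNA from L1 cord was hybridised to Affymetrix 3' arrays after two-cycle biotin labelling of 100 ng of total RNA, per the labels' protocols. The authors deposited linear probe set intensity values, 1 column per array. The 2% trimmed mean was 1000.01 on every array, so the intensities were scaled before deposit. The labels and the file do not name the method that summarised the probes. The table had 45101 probe sets, of which 64 were controls and left out. Symbols came from the platform annotation, updated by gene ID through the RefSeq table of GRCm38.p6. The annotation gave 34945 probe sets 1 symbol, 932 several and 9160 none.

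Each array was scaled to the median of 255.8, 25.6 was added and log2 taken. Limma 3.58.1 in R 4.3.3 (lmFit, eBayes, two-sided) fitted a mean per group over all 6 arrays, with 3 residual and 3.59 prior degrees of freedom, and Benjamini-Hochberg adjustment over 27022 probe sets. Precision is limited by the number of arrays. With 2 arrays against 2, the smallest two-sided p of an exact permutation test is 0.333, so none was used. A gene is read by its brightest probe set above the filter.

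The members and lists were chosen with earlier results of these data known. All members and family genes are named. From each other list, the 3 genes with the smallest p in N-inv minus SC and up to 3 with the widest gap between tumour and PBS arrays were named. For each member the 5 most alike genes were listed. The script was tested on simulated data. Alternatives covered scaling, constant, filter, model, block, probe set choice and single arrays left out.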

Additional observations from a re-analysis of the deposited data

Results flagged for a closer look

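For 5 of the named genes both N-inv arrays lay on one side of PBS and both SC arrays on the other. The share of all probe sets with this pattern was not computed. The 5 were named for a small p in N-inv minus SC or for likeness to Crhr1, and both choices favour it. Tac2 lay above PBS in N-inv cord and below it in SC. Its N-inv mean was 1.42 times that in SC, with a log2 difference of 0.49 ± 0.15 (SE) and an adjusted p of 0.464 in limma. Sult1a1 lay below PBS in N-inv cord and above it in SC. Its N-inv mean was 0.417 times that in SC, with a log2 difference of -1.10 ± 0.38 (SE) and an adjusted p of 0.499 in limma, and the difference was -0.46 without SC replicate 2. The other 3 genes, S1pr2, Krt1 and Plxna2, were also low in N-inv and high in SC, and they were listed for their likeness to Crhr1. Their N-inv means were 0.73, 0.60 and 0.65 times those in SC, in that order, and without SC replicate 2 the log2 differences were -0.47, -0.76 and -0.69. None of the 5 differences passed the threshold, with adjusted p from 0.449 to 0.517 in limma. The 4 member probe sets did not show this pattern after scaling to the common median. In the values as deposited the brighter Crhr1 probe set did, with 535.0 and 513.2 in N-inv cord and 704.4 and 577.1 in SC, against 557.5 and 572.5 in PBS. Groups of 2 arrays are too small for a test of single arrays that stand apart.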

How the results depend on the processing

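The 2 arrays a group, the lack of detection calls and a single probe set for Crh and Crhbp limit every value here. The difference of Crh from PBS, whose sign the choice of the gene fixes, ran from 1.08 to 1.38 in N-inv over 16 alternatives, and in SC from 1.03 without SC replicate 1 to 1.55 without SC replicate 2. N-inv minus SC for Crh ran from -0.29 to 0.23 with single arrays left out, and its sign turned on leaving out SC replicate 1 (0.23) or N-inv replicate 2 (0.058). Crhbp was higher in N-inv than in PBS under all 15 alternatives that gave a value, from 0.60 to 0.83, and than in SC, from 0.27 to 0.77, with adjusted p from 0.577 to 0.99999 and from 0.198 to 0.999 in limma. A filter at the 60th percentile removed Crhbp and gave no value. SC minus PBS for Crhbp ran from -0.017 without SC replicate 2 to 0.49 without SC replicate 1. For Crhr1 the mean of both probe sets turned the sign of N-inv minus PBS (0.44) and of N-inv minus SC (0.23), because the dimmer probe set was at 399.3 on N-inv replicate 2, against 165.4 on N-inv replicate 1. Other alternatives kept the sign of Crhr1.

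No alternative called Crhr1 or Crhbp, and Crh is only described. The count of called probe sets was 1 in N-inv minus PBS with an intensity trend (Depp1), with only the groups compared and without either SC replicate (Sprr1a each time). It was 10 in SC minus PBS without SC replicate 1, and 0 with the other array left out. In N-inv minus SC it was 2 with an intensity trend (Depp1 and Serpinb1a) and 2 without SC replicate 1 (both Xist), with a range of 0 to 2. These genes were named after their values were seen, and the cause was not tested, except that leaving out an SC array changes the shared spread. Without SC replicate 1 the SC group is SC replicate 2 alone, where Xist was at 13042, against 138.3 to 228.1 on the other arrays. A lone remaining array is assumed to vary like the other groups. Replicate numbers paired nothing by the labels, and the deviations of equal numbers correlated at -0.032, 0.010 and 0.037 between groups. With the replicate block, 0 probe sets were called in each comparison, and in this balanced design the block cannot move a difference, so that Crhbp in N-inv minus PBS was 0.76 either way, with an SE of 0.19 with the block and 0.21 without it.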
